A study of Mus musculus with 19 samples.

Results

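The proteasome is the protease of the cytosol and nucleus that degrades ubiquitin-tagged proteins. Its core particle is a barrel of alpha rings around beta rings, and only Psmb5, Psmb6 and Psmb7 among the constitutive beta subunits carry active sites. Psmb8, Psmb9 and Psmb10, the interferon-inducible immunoproteasome subunits, take the places of Psmb5, Psmb6 and Psmb7, and the particle they form is known for cutting peptides for presentation on class I molecules. The 19S regulatory particle, with a base of ATPases and a lid that holds the deubiquitinase Psmd14, recognises, unfolds and feeds substrates into the core. Activators (Psme1 and Psme2, which form the interferon-inducible PA28 ring, Psme3 and Psme4) open the core in its place, Psmf1 inhibits it, and dedicated chaperones (Psmg1 to Psmg4 for the core, Psmd5, Psmd9 and Psmd10 for the base) help to assemble it. Leukocytes are known to be rich in immunoproteasome, and most other cells, hepatocytes included, make it after interferon.

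The genes described here are all entries of the liver expression table whose symbol is Psm, a letter from a to g and a number. They came to 48 of 52110 named entries, and 46 of the 48 had a mean of at least 1 FPKM (a level per length of gene, relative to all mapped fragments) over the samples and were tested. The 2 others were the tissue-restricted core subunits. Psma8, known from the testis, lay between 0.129 and 0.644 FPKM, and Psmb11, known from the thymus, was listed at 0 in every sample except 1 of the NC RIC group. Psmb9 passed the minimum only through the CDAHFD samples, since its mean in NC sham was below 1 FPKM.

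All 19 samples were livers of wild-type (WT) mice in 4 groups. The NC sham group (n = 5) ate normal chow (NC) and had a sham procedure. The NC RIC group (n = 5) ate chow and had remote limb ischemic conditioning (RIC), in which blood flow to a limb is briefly and repeatedly stopped. The CDAHFD sham (n = 5) and CDAHFD RIC (n = 4) groups ate a high-fat diet that lacks choline and supplies defined L-amino acids, a diet given to induce steatohepatitis, with a sham procedure or with RIC. The sources used here give no strain, sex, age, time on diet, RIC schedule or animal for any sample. A p-value therefore measures only how far samples of a group spread, and that spread may be partly technical. In bulk liver, fewer cells of a type and less RNA per cell cannot be told apart.

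Sequence upstream of constitutive and inducible subunits is shown first, because the results below are given separately for these sets. RefSeq promoter windows (GRCm38.p6, from 250 bases before to 50 after the start site) existed for 40 of the 48 members, including Psmb5, Psmb6 and all 3 immunoproteasome subunits but not Psmb7. The stretches below end upstream of the start site, and capitals mark the motif match in each. The first and second hold the core of the antioxidant response element, the motif bound by NRF1 and NRF2, and the third holds a gamma activated site, a motif of interferon gamma responses. The windows of Psmb9 and Psmb10 held neither motif and are not shown.
Psmb5, chr14:54618023-54618125, minus strand, no annotated exon: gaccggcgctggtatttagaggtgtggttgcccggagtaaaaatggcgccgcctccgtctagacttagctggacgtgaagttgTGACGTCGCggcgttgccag
Psmb6, chr11:70525227-70525356, plus strand, no annotated exon: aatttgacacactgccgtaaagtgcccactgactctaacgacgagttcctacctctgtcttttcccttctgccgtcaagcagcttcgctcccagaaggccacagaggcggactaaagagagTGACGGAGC
Psmb8, chr17:34198088-34198116, plus strand, inside the first exon of a longer annotated Psmb8 transcript: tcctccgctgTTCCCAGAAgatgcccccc
In GRCm38, Psmb5 lies at chr14:54614119-54618022 (minus strand), Psmb6 at chr11:70525367-70527858 (plus) and Psmb7 at chr2:38588036-38644087 (minus). Psmb8 (chr17:34197721-34201454, plus) and Psmb9 (chr17:34181987-34187764, minus) lie close together, with Tap1 between them, in the class II region of the histocompatibility complex, and Psmb10 is at chr8:105935735-105938444 (minus). The PA28 genes Psme1 (chr14:55578123-55581529, plus) and Psme2 (chr14:55587441-55591113, minus) are neighbours too.

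Both strands of every window were searched. The antioxidant response core, TGACNNNGC, was in the windows of Psmb5, Psmb6, Psmc6, Psmd9, Psmd12 and Psme4, which made 6 of 40 members (15%) against 13.99% of the 27025 genes with a window. The interferon stimulated response core, GAAANNGAA, was in 7 of 40 member windows (17.5%) against 9.76% of all genes, and in 0 of the 3 immunoproteasome windows. The gamma activated pattern, TTCNNNGAA, was in Psmb8, Psmd2 and Psmg1 (7.50% of members against 9.55% of all genes), and the CCAAT box was in 35.0% of members against 41.1% of all genes. These matches describe the letters of the windows only.

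Sequencing depth, estimated from the steps of low FPKM values in single-exon genes, had group medians between 17.3 and 21.7 M reads. The labelled tissue held: all 10 hepatocyte markers were expressed, with summed levels of 34167 to 69236 FPKM over the samples. Levels were compared with limma on log2(FPKM + 1), on which a difference understates the change of low genes, and a gene was called at a Benjamini-Hochberg adjusted p below 0.05 over the 10577 genes tested. The whole table was shifted by diet on this scale: the median difference over all genes was 0.45 between CDAHFD sham and NC sham, with 63.9% of genes called higher and 10.3% called lower. Dividing each sample by its median ratio to the other samples, or quantile normalization, brought that median to -0.05 and -0.04, and moved the calls over all genes from 6762 higher and 1090 lower to 2849 and 3637 (median ratio) or 3116 and 3428 (quantile). Differences are therefore given beside the all-gene median, and those that turned with the scaling are named. CDAHFD sham replicates 2 and 5, set apart in earlier work on the whole table, were also left out together. Without them 28 members were called higher and 3 lower for diet in sham mice, and 9 lower and 2 higher for RIC on CDAHFD. Over all 10577 genes, 6295 were then called higher and 1211 lower for diet, and 1967 lower and 1290 higher for RIC.

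**Figure D1:**
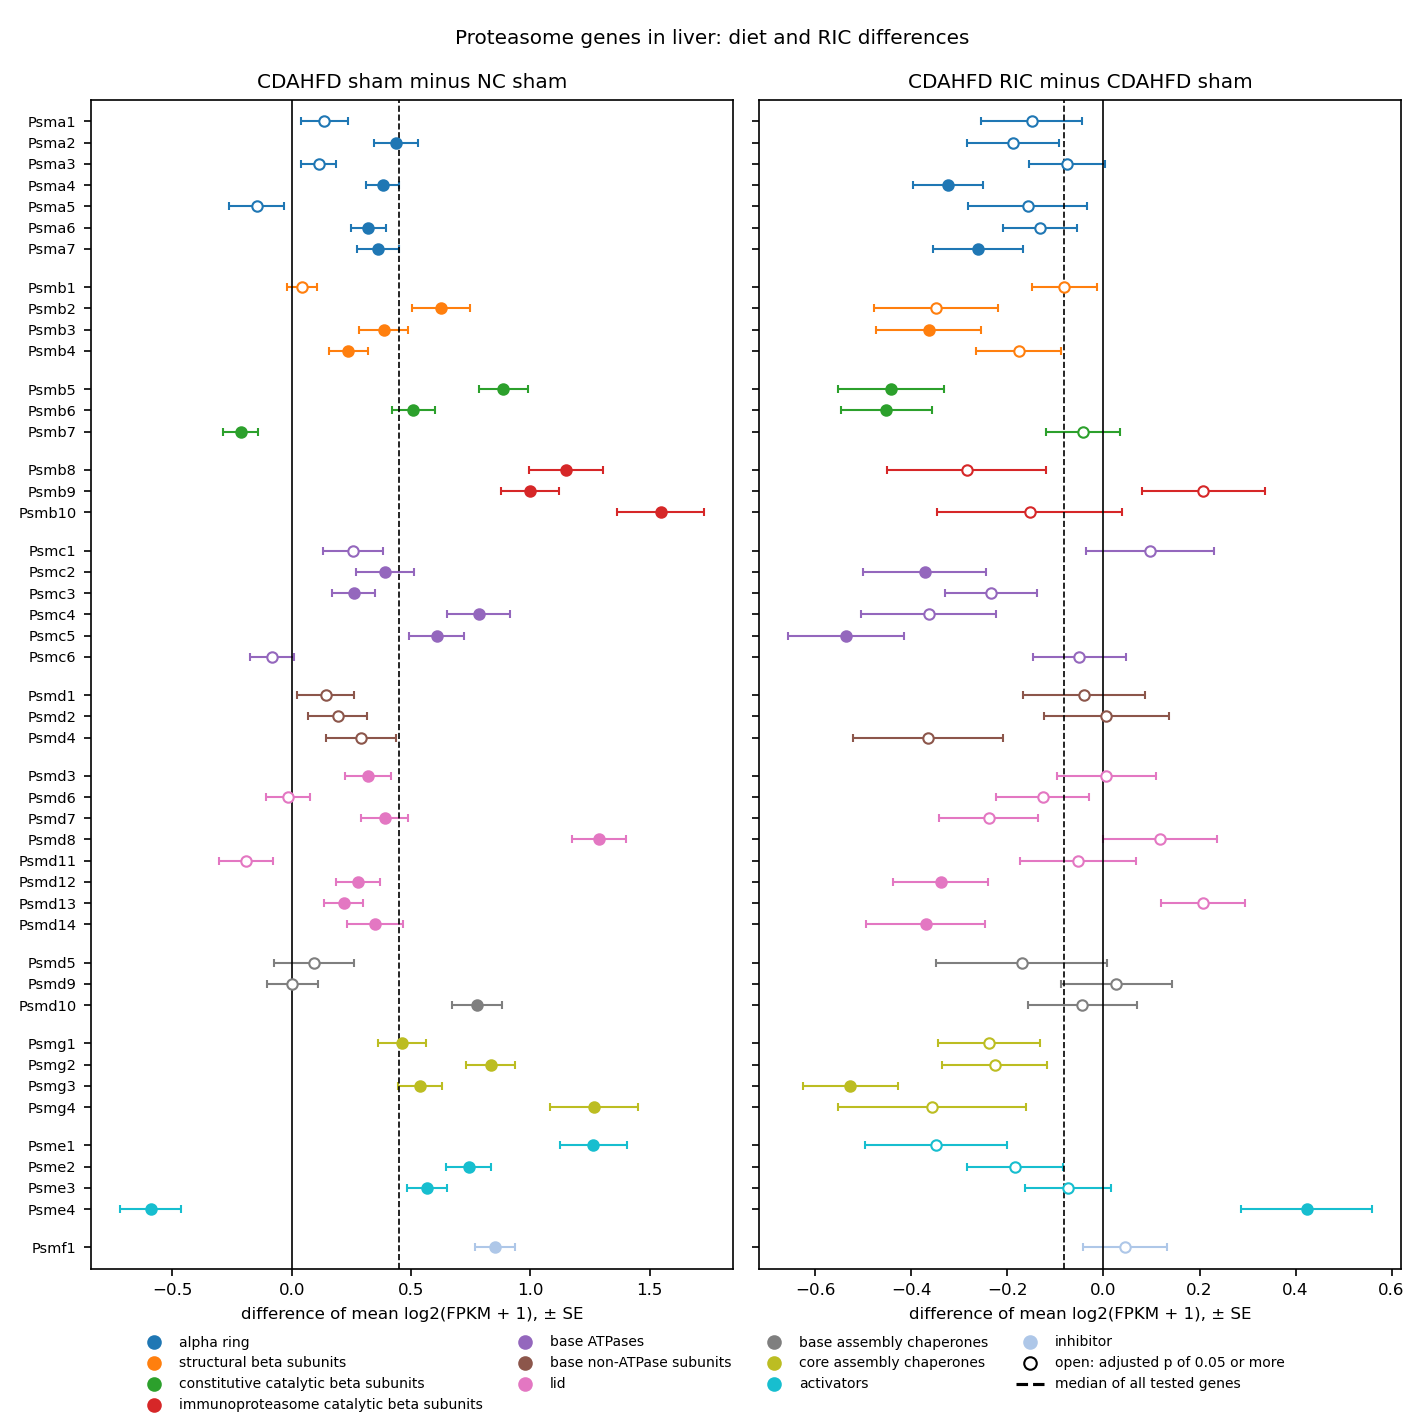
Difference in log2(FPKM + 1) between CDAHFD sham and NC sham (left panel) and between CDAHFD RIC and CDAHFD sham (right panel) for the 46 tested members, grouped by class, with whiskers of 1 standard error; filled points were called, open points were not, and the dashed line is the median over all genes. In the left panel the immunoproteasome subunits, core chaperones, Psme1 and Psmd8 lie right of the line at 0.45, most ring, base and lid subunits lie left of it, and many of these turn negative under median-ratio scaling.

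Diet in sham mice was the broadest comparison for the proteasome. Of the 46 tested members, 31 rose (67.4%, against 63.9% of all genes) and 2 fell (4.35%, against 10.3%), so the share called higher was close to the background. The median member difference was 0.37, below the all-gene median of 0.45, and 18 of 46 members lay above that median. Within the set the classes were spread: the immunoproteasome subunits had a median of 1.15, the core chaperones 0.69, the activators 0.65, the constitutive catalytic subunits 0.51, the base ATPases 0.33, the alpha ring 0.32, the lid 0.30 and the base subunits without ATPase activity 0.19. Under median-ratio scaling 9 members remained higher (Psmb5, Psmb8, Psmb9, Psmb10, Psmd8, Psmg2, Psmg4, Psme1 and Psmf1) and 27 were lower, and under quantile normalization 17 were higher and 11 lower. Of all genes, 26.9% were higher and 34.4% lower under median-ratio scaling, and 29.5% and 32.4% under quantile normalization. Relative to these shares, the members leaned lower under median ratio and higher under quantile normalization.

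Psmb10, which replaces Psmb7 and cuts after basic residues, showed the largest difference of the set on the log2(FPKM + 1) scale, and Psmb9 the largest ratio of means (3.47-fold). It measured 3.82, 3.09, 5.35, 2.48 and 4.13 FPKM in NC sham, and 13.4, 9.45, 15.3, 15.3 and 10.9 FPKM in CDAHFD sham. Every CDAHFD sham sample was above every NC sham sample, and the means were 12.9 ± 2.61 and 3.78 ± 1.09 FPKM (SD, n = 5 each), a 3.41-fold ratio. Such a separation was common, since 52.4% of all tested genes had every CDAHFD sham sample above every NC sham sample. The separations of single members described below stand beside that share. The Psmb10 difference was 1.55 (SE 0.18, limma adjusted p = 3.65e-07), 1.10 above the all-gene median.

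Psmb8, which replaces Psmb5 and cuts after hydrophobic residues, measured 3.69, 2.36, 3.95, 1.79 and 3.402 FPKM in NC sham and 7.31, 6.02, 9.98, 9.37 and 6.73 FPKM in CDAHFD sham. The groups did not overlap, and the difference was 1.15 (SE 0.16, limma adjusted p = 2.21e-06), with a 2.59-fold ratio of the means. Psmb9, which replaces Psmb6, measured 0.924, 0.525, 0.632, 0.527 and 0.820 FPKM in NC sham and 2.72, 2.01, 2.91, 2.43 and 1.81 FPKM in CDAHFD sham. It was the lowest of the catalytic subunits in both groups, its groups did not overlap either, and the ratio of the means was 3.47-fold (difference 0.998). Because Psmb9 entered the tested set through the CDAHFD samples, its p was taken from the fit with no filter on low values (limma adjusted p = 2.75e-06). All 3 immunoproteasome subunits stayed higher under each of the 4 scalings, with median-ratio differences of 0.97 for Psmb10, 0.61 for Psmb8 and 0.63 for Psmb9. The fits under these scalings kept the filter on low values, so the Psmb9 calls there depend on its entry through the CDAHFD samples. Psmb9 shares exon sequence with Tap1 on the opposite strand, which rose as well (0.645 to 2.03 FPKM in group means), and the sources used here do not say whether libraries kept strand, so their reads cannot be told apart.

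The constitutive catalytic subunits did not move as a unit. Psmb5, the chymotrypsin-like subunit, measured 80.4, 65.6, 63.1, 72.3 and 73.6 FPKM in NC sham and 149, 114, 141, 131 and 125 FPKM in CDAHFD sham. Its groups were far apart, with a 1.86-fold ratio of the means and a difference of 0.89 (SE 0.10, limma adjusted p = 3.28e-07) that was 0.23 under median-ratio scaling and still called. Psmb6, the caspase-like subunit, measured 58.3, 44.3, 43.1, 47.3 and 49.5 FPKM in NC sham and 74.6, 63.5, 73.4, 70.8 and 63.6 FPKM in CDAHFD sham. These groups did not overlap and Psmb6 rose by 0.51 (SE 0.09, limma adjusted p = 4.81e-05), but it measured -0.14 under median-ratio scaling.

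Psmb7, the trypsin-like subunit and 1 of the 2 members that fell, measured 49.1, 46.6, 39.7, 50.9 and 47.1 FPKM in NC sham and 37.5, 42.5, 38.8, 40.2 and 40.8 FPKM in CDAHFD sham. The groups overlapped through NC sham replicate 3, and the difference of -0.21 (SE 0.07, limma adjusted p = 0.0129) lost its call when samples were rescaled to a common sum (-0.16, adjusted p = 0.0979). Psmb7 overlaps Nek6 exons on the opposite strand. The 3 active-site genes thus spanned 0.86-fold to 1.86-fold in the ratio of CDAHFD sham to NC sham means.

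**Figure D2:**
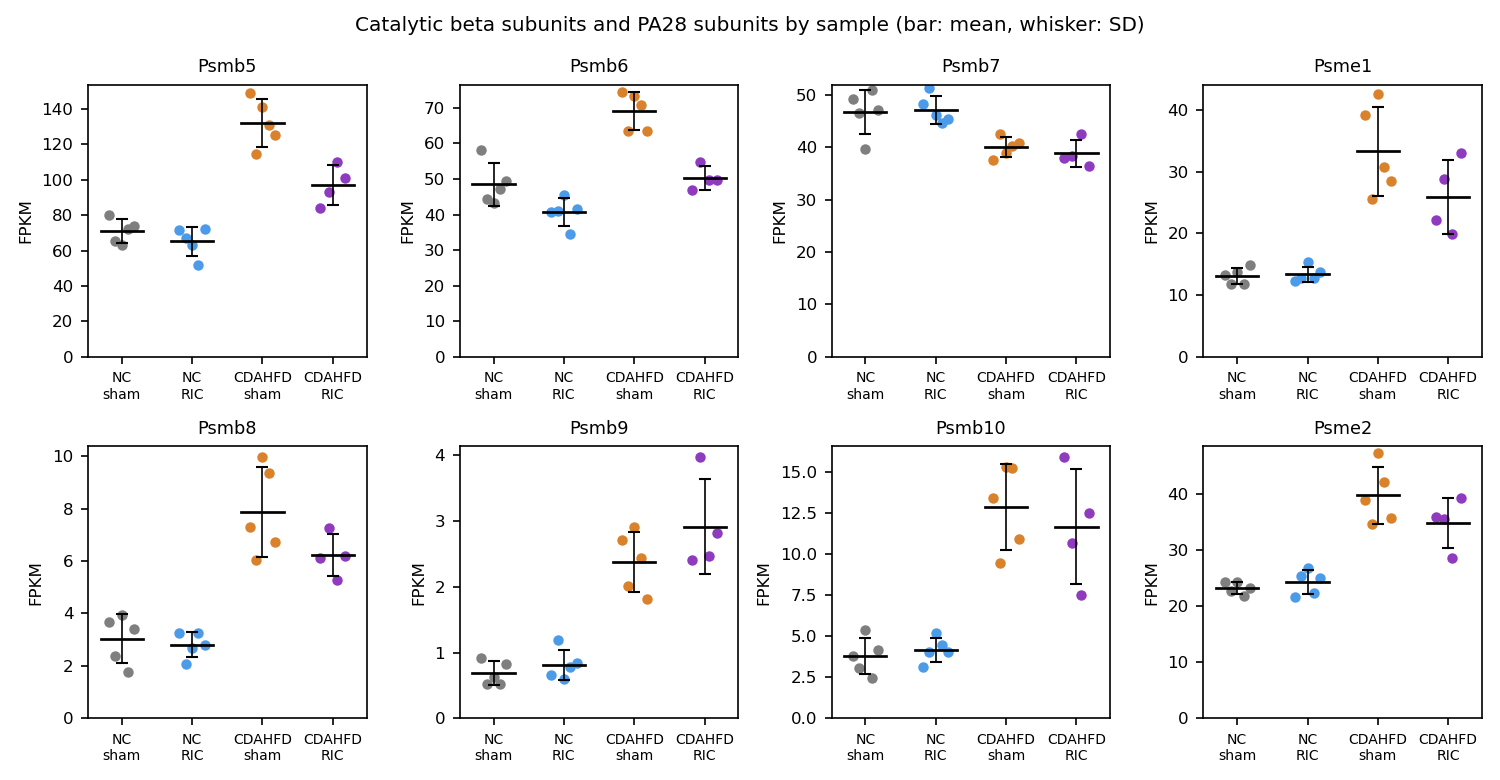
FPKM of the constitutive catalytic subunits, the immunoproteasome subunits and the PA28 subunits Psme1 and Psme2, 1 point per sample in the 4 groups, with a bar at the mean and a whisker of 1 SD. Psmb8, Psmb9, Psmb10 and Psme1 are higher in both CDAHFD groups, Psmb5 and Psmb6 are lower in CDAHFD RIC than in CDAHFD sham, and Psmb7 stays between 36.5 and 51.2 FPKM in all samples.

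The ratio of an inducible subunit to the constitutive one it replaces does not depend on any factor that scales a whole sample. Psmb10 ran at 4.87% to 13.5% of Psmb7 in NC sham (median 7.78%) and at 22.2% to 39.4% in CDAHFD sham (median 35.8%). The groups did not overlap, and the ratio was 4.03-fold higher on CDAHFD (exact two-sided permutation test, p = 0.00794, adjusted p = 0.0381 over the 12 ratio tests made). Psmb9 ran at 1.12% to 1.66% of Psmb6 in NC sham (median 1.46%) and at 2.85% to 3.96% in CDAHFD sham (median 3.44%), a 2.45-fold difference with the same exact permutation p and adjusted p. Psmb8 ran at 2.47% to 6.27% of Psmb5 in NC sham (median 4.59%) and at 4.91% to 7.16% in CDAHFD sham (median 5.37%). These overlapped, and the 1.43-fold difference did not pass the exact permutation test (p = 0.0794, adjusted p = 0.119). It passed without NC sham replicate 3, the sample with the highest ratio in its group (adjusted p = 0.0317, exact permutation test). A p of 0.00794 is the smallest that 5 against 5 samples can give.

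Summed over the 6 catalytic subunits, the immunoproteasome share of FPKM was 4.30%, 3.68%, 6.38%, 2.73% and 4.68% in NC sham and 8.25%, 7.35%, 10.003%, 10.1% and 7.81% in CDAHFD sham. Every CDAHFD sham sample was above every NC sham sample. The share was 4.20%, 4.40%, 5.18%, 6.11% and 4.60% in NC RIC and 12.7%, 10.5%, 7.04% and 10.3% in CDAHFD RIC.

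**Figure D3:**
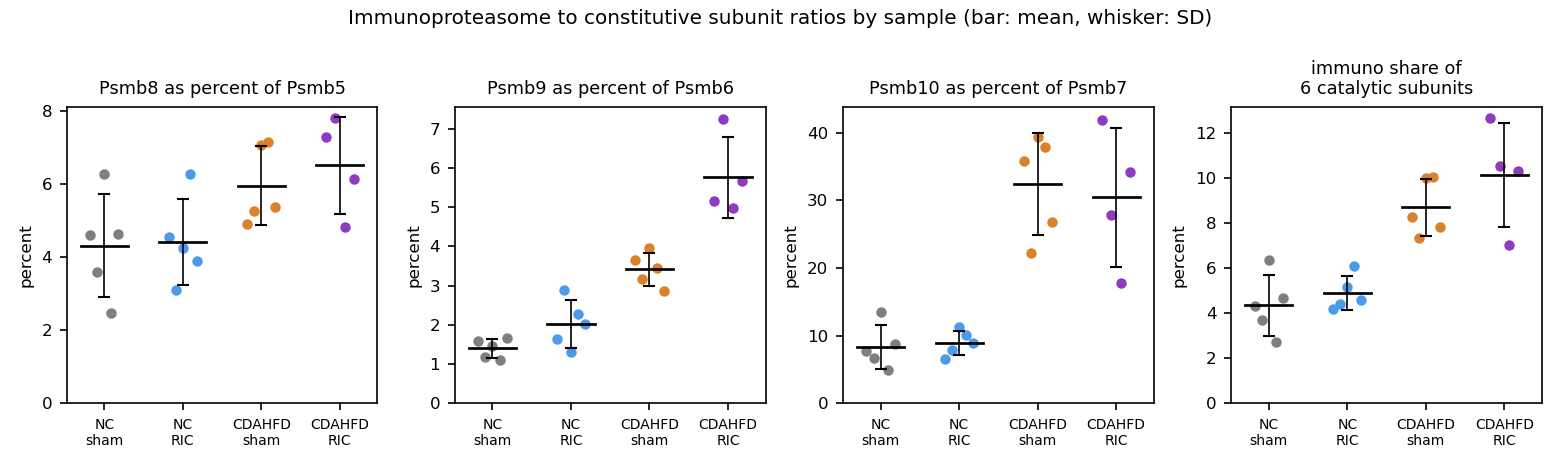
Psmb8 as a percent of Psmb5, Psmb9 of Psmb6 and Psmb10 of Psmb7, and the immunoproteasome share of summed catalytic FPKM, all from the FPKM of 1 sample each, in the 4 groups. Psmb10 to Psmb7 does not overlap between the chow and CDAHFD groups, Psmb9 to Psmb6 overlaps only through 1 NC RIC sample (2.89%) and the lowest CDAHFD sham sample (2.85%), and Psmb9 to Psmb6 alone separates CDAHFD RIC (4.97% to 7.24%) from CDAHFD sham (2.85% to 3.96%).

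Leukocyte markers moved with these subunits. None of the 15 markers listed was at 0 in all samples, 10 were abundant enough to test, and all 10 rose under each scaling (median difference 3.11). Ptprc, Laptm5, Coro1a and Itgb2 passed the minimum only through the CDAHFD samples, with NC sham means of 0.393, 0.813, 0.883 and 0.612 FPKM. The untested Cd3e, Cd8a, Nkg7 and Cd79a had higher means in CDAHFD sham than in NC sham, and Ms4a1 did not (0.0733 and 0.0759 FPKM). The summed level of the 15 was 31.1 to 44.1 FPKM in NC sham, 25.9 to 46.9 FPKM in NC RIC, 464 to 704 FPKM in CDAHFD sham and 310.3 to 705 FPKM in CDAHFD RIC. Among the CDAHFD sham samples, replicate 2 had the lowest marker sum and the lowest immunoproteasome sum (17.5 FPKM), and replicate 3 had the highest of both (28.2 FPKM). The orders differed in other groups: in CDAHFD RIC replicate 2 had the highest marker sum (705 FPKM) and replicate 1 the highest immunoproteasome sum (24.4 FPKM), and in NC sham replicate 1 had the lowest marker sum and replicate 4 the lowest immunoproteasome sum (4.79 FPKM). Of the other cell types, all 4 tested stellate markers (median 2.44), the 2 cholangiocyte markers tested of 4 listed (1.65) and 4 of 5 endothelial markers (0.77) rose with diet in sham mice. Col1a1, Acta2, Epcam and Sox9 among them also had NC sham means below 1 FPKM (0.0782, 0.215, 0.600 and 0.941 FPKM). Over all genes 63.9% were called higher in this comparison and 10.3% lower, with a median difference of 0.45. Of the 10 hepatocyte markers 8 fell with diet in sham mice. Between 4 and 10 fell under the other scalings, where 8.83% to 34.4% of all genes did. The part of cell composition in the immunoproteasome difference was not tested.

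The rings that hold the active sites changed less. The alpha ring, whose N termini gate the core, had 4 of 7 subunits higher and none lower, over a range of -0.15 to 0.44, and none lay above the all-gene median. Psma4 measured 54.5, 55.1, 48.8, 59.1 and 56.8 FPKM in NC sham and 76.3, 65.5, 73.3, 70.6 and 72.6 FPKM in CDAHFD sham, without overlap, a 1.31-fold ratio. Psma6 was the most abundant alpha subunit in all 4 groups, at mean levels of 94.7 FPKM in NC sham and 118 FPKM in CDAHFD sham, and Psma5 was 1 of the 3 that were not called (64.1 and 57.4 FPKM). Of the structural beta subunits, Psmb2, Psmb3 and Psmb4 rose and Psmb1 did not pass the test (26.5 and 27.3 FPKM). Under median-ratio scaling the medians of the alpha ring and of the structural beta subunits turned to -0.33 and -0.34, and all 4 called alpha subunits turned negative.

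In the 19S regulator, 10 of 17 subunits rose, beside 63.9% of all genes, and none fell, with a median of 0.28 against 0.45 over all genes. Psmd8, a lid subunit, stood apart from the other lid genes, which ranged from -0.19 to 0.39. It measured 24.7, 24.5, 21.1, 27.3 and 27.0 FPKM in NC sham and 50.7, 71.9, 64.3, 56.6 and 69.2 FPKM in CDAHFD sham, a 2.51-fold ratio without overlap (difference 1.29, SE 0.11, limma adjusted p = 7.27e-09). It was higher under every scaling (0.64 under median ratio), while the lid median turned from 0.30 to -0.32 there.

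Of the base ATPases, 4 of 6 rose, led by Psmc4 (26.6 to 46.2 FPKM) and Psmc5 (37.4 to 57.2 FPKM). Psmc1 and Psmc6 did not pass the test. The ATPase median turned from 0.33 to -0.31 under median-ratio scaling. None of the base subunits without ATPase activity (Psmd1 and Psmd2, the scaffolds, and Psmd4, a ubiquitin receptor) passed the test in sham mice, with differences of 0.14 to 0.29. Among the subunits of the constitutive core and the 19S regulator, differences ran from -0.21 for Psmb7 to 1.29 for Psmd8.

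The activators went in opposite directions. Psme1, the PA28 alpha subunit, measured 13.2, 11.9, 13.7, 11.7 and 14.9 FPKM in NC sham and 39.2, 25.6, 42.6, 30.7 and 28.5 FPKM in CDAHFD sham. Its groups did not overlap, the ratio of the means was 2.55-fold and the difference 1.26 (SE 0.14, limma adjusted p = 1.64e-07), called under every scaling. Psme1 shares exon sequence with Emc9 on the opposite strand. Psme2, the PA28 beta subunit, measured 24.2, 22.6, 24.3, 21.8 and 23.2 FPKM in NC sham and 38.9, 34.7, 47.3, 42.2 and 35.7 FPKM in CDAHFD sham. It rose by less than its partner (1.71-fold, difference 0.74, SE 0.09, limma adjusted p = 1.04e-06) and lost its call under median-ratio scaling (0.10, adjusted p = 0.35). Psme2 has a near-identical copy, Psme2b, whose mean was 6.66 FPKM in NC sham and 11.2 FPKM in CDAHFD sham, so the split of reads between the copies is uncertain.

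Psme4, which codes for PA200, an activator known from DNA repair and histone turnover, fell. It measured 16.7, 18.5, 15.6, 20.6 and 19.1 FPKM in NC sham and 9.07, 15.6, 9.29, 11.6 and 13.7 FPKM in CDAHFD sham, and only CDAHFD sham replicate 2 reached the chow range. The difference was -0.59 (SE 0.13, limma adjusted p = 0.000395), and it was called lower under all 4 scalings (-1.20 under median ratio). Psme3, the nuclear PA28 gamma, rose from a mean of 10.8 to 16.5 FPKM, a call that turned to -0.05 under median-ratio scaling. Psmf1, the inhibitor PI31, rose from 1.63 ± 0.0563 to 3.76 ± 0.411 FPKM (SD, n = 5 each), a 2.30-fold ratio. Its call held under every scaling, with a difference of 0.85 that was 0.38 under median ratio and 0.30 under quantile normalization.

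All 4 core assembly chaperones rose and each lay above the all-gene median. Psmg4 measured 3.97, 5.67, 5.98, 4.61 and 6.50 FPKM in NC sham and 18.6, 10.5, 17.7, 12.5 and 12.8 FPKM in CDAHFD sham, a 2.69-fold ratio without overlap (difference 1.26, SE 0.18, limma adjusted p = 5.28e-06). Psmg2 rose from a mean of 5.50 to 10.5 FPKM, and these 2 were the chaperones called higher under every scaling. Psmg1 turned to -0.15 under median-ratio scaling and Psmg3 to -0.0051 under quantile normalization. Of the base chaperones, Psmd10 (gankyrin) rose from 5.43 to 10.1 FPKM in group means, while Psmd5 and Psmd9 measured 0.09 and 0.0028 and did not pass the test.

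**Figure D4:**
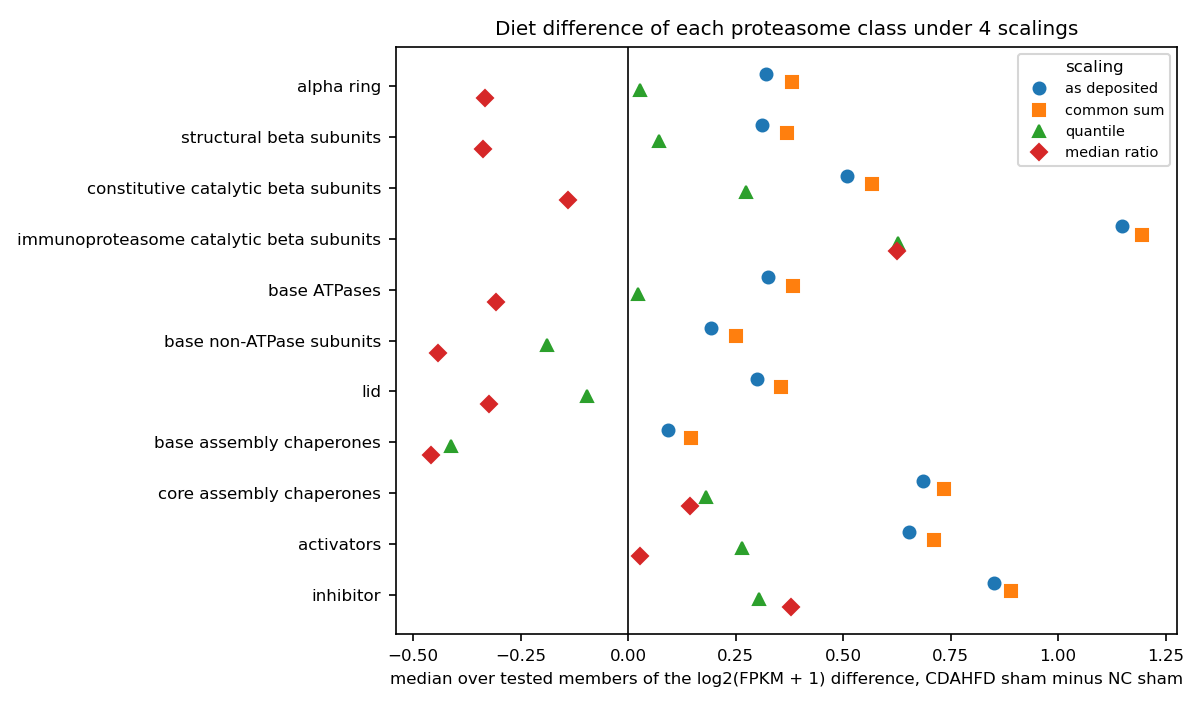
Median difference in log2(FPKM + 1) of each proteasome class between CDAHFD sham and NC sham, under the main scaling and 3 others (common sum, median ratio, quantile). The immunoproteasome median stays positive throughout (1.15, 1.20, 0.63 and 0.63), whereas the alpha ring, lid and ATPase medians lie between -0.31 and -0.33 under median ratio.

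After RIC on the CDAHFD diet, some constitutive subunits were called lower and no immunoproteasome subunit was called, but the class medians were close. The median difference was -0.18 for the constitutive core and -0.15 for the immunoproteasome subunits, which ranged from -0.28 to 0.21. Comparing CDAHFD RIC with CDAHFD sham, 10 of 46 members fell (21.7%, against 18.6% of all genes called lower) and 1 rose (2.17%, against 8.72%), so the share called lower was close to the background. The median member difference was -0.17, against -0.08 over all genes. Over all genes, 922 were higher and 1964 lower on the main scale, 1378 and 977 with median-ratio scaling, 1210 and 971 with a common sum, and 1481 and 1449 with quantile normalization. Of the members, 4 were called lower under every scaling (Psmb5, Psmb6, Psmc5 and Psmg3), and these 4 kept the call whichever of the 19 samples was left out. All CDAHFD RIC samples lay below all CDAHFD sham samples for 16 of 46 members (34.8%), called or not, and for 13.1% of all genes. The count of lower members was 5 without CDAHFD RIC replicate 1 and 6 without CDAHFD sham replicate 3.

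Psmb5 measured 149, 114, 141, 131 and 125 FPKM in CDAHFD sham and 84.0, 93.1, 109.8 and 101 FPKM in CDAHFD RIC. No CDAHFD RIC sample reached the sham range, and the level fell by 0.44 (SE 0.11, limma adjusted p = 0.00729). The CDAHFD RIC mean of 97.0 ± 11.0 FPKM (SD, n = 4) was still above the NC sham mean of 71.0 ± 6.86 FPKM (SD, n = 5). Psmb6 measured 46.8, 54.8, 49.8 and 49.6 FPKM in CDAHFD RIC, all below the CDAHFD sham samples and within the NC sham range of 43.1 to 58.3 FPKM. It fell by 0.45 (SE 0.10, limma adjusted p = 0.00265). Psmb7 measured 37.9, 38.4, 42.5 and 36.5 FPKM in CDAHFD RIC, which overlapped the sham samples (difference -0.04, limma adjusted p = 0.715).

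Psmc5, an ATPase of the base, showed the largest fall of the set on the log2(FPKM + 1) scale, while Psmg3 had the lowest ratio of means (0.62-fold, against 0.68-fold for Psmc5). It measured 65.5, 52.3, 57.3, 51.0 and 59.9 FPKM in CDAHFD sham and 34.9, 40.6, 41.8 and 38.9 FPKM in CDAHFD RIC, without overlap (difference -0.54, SE 0.12, limma adjusted p = 0.00425). Its CDAHFD RIC mean of 39.1 FPKM lay close to the NC sham mean of 37.4 FPKM. Psma4 measured 56.2, 57.8, 56.7 and 57.3 FPKM in CDAHFD RIC, the smallest spread relative to its mean of the 11 called members, and fell by 0.32 (SE 0.07, limma adjusted p = 0.00386). That call was lost with a common sum (-0.21, adjusted p = 0.0519).

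Psmg3, a core assembly chaperone, measured 2.74, 2.38, 2.52, 2.31 and 2.33 FPKM in NC sham and 2.37, 2.75, 2.16, 1.65 and 2.81 FPKM in NC RIC. On CDAHFD it measured 4.46, 4.14, 4.17, 3.57 and 3.79 FPKM in sham and 2.82, 2.13, 2.64 and 2.37 FPKM after RIC. The CDAHFD sham group stood above the other 3, which overlapped each other, and the fall with RIC was -0.53 (SE 0.10, limma adjusted p = 0.00116).

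The other members that fell were Psmb3, Psma7, Psmc2, Psmd12 and Psmd14, the lid deubiquitinase, by -0.26 to -0.37. Each lost the call in at least 1 alternative: Psmb3 without CDAHFD sham replicate 3 (adjusted p = 0.0503) or CDAHFD RIC replicate 1 (0.0782), and Psmd12 without CDAHFD RIC replicate 1 (0.0712). Psmd14 measured 24.009, 23.3, 24.5, 22.4 and 24.9 FPKM in CDAHFD sham and 15.6, 19.5, 21.2 and 16.9 FPKM in CDAHFD RIC. By class, 5 of 14 constitutive core subunits, 4 of 17 subunits of the 19S base and lid and 1 of 4 core chaperones fell, and none of the base chaperones, beside 18.6% of all genes.

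Psme4 was the member that rose. It measured 18.7, 16.8, 15.1 and 13.5 FPKM in CDAHFD RIC against 9.07, 15.6, 9.29, 11.6 and 13.7 FPKM in CDAHFD sham, with overlap (difference 0.42, SE 0.14, limma adjusted p = 0.0278). The call held under all 4 scalings but was lost without CDAHFD sham replicate 1 (0.0741) or 3 (0.0782) or CDAHFD RIC replicate 1 (0.0917) or 2 (0.0665), as limma adjusted p. The diet comparison in sham mice and the RIC comparison on CDAHFD share the CDAHFD sham samples. Psme4 measured -0.59 in the first and 0.42 in the second, and Psmb5 measured 0.89 and -0.44.

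The immunoproteasome subunits and PA28 did not pass the test after RIC on CDAHFD. Psmb8 measured 6.13, 7.26, 5.29 and 6.20 FPKM in CDAHFD RIC (difference -0.28, limma adjusted p = 0.207), Psmb9 measured 2.41, 3.97, 2.47 and 2.81 FPKM (0.21, 0.233) and Psmb10 measured 15.9, 10.7, 7.53 and 12.5 FPKM (-0.15, 0.581). All 3 overlapped the CDAHFD sham range. Psme1 measured 22.1, 28.8, 19.9 and 33.0 FPKM (-0.35, limma adjusted p = 0.085), and passed without CDAHFD sham replicate 2 (-0.44, 0.0322), without replicates 2 and 5 together (-0.53, 0.0151) or without CDAHFD RIC replicate 4 (-0.47, 0.0284). Psme2 measured 36.0, 35.6, 28.6 and 39.3 FPKM (-0.18, limma adjusted p = 0.178). CDAHFD RIC replicate 3 had the lowest Psmb8, Psmb10, Psme1 and Psme2 of its group, and the lowest leukocyte marker sum (310.3 FPKM, the others 558 to 705 FPKM). Of the 10 tested leukocyte markers, 1 rose and none fell with RIC on CDAHFD, and of the 10 hepatocyte markers 2 rose and 1 fell (median 0.08). Of 4 stellate markers 2 fell (median -0.53), while the mean of Lrat, also a stellate marker, went from 4.81 to 6.41 FPKM. No endothelial or cholangiocyte marker was called. Over all genes 8.72% were called higher and 18.6% lower. The part of cell composition in these values was not tested.

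With Psmb6 lower and Psmb9 uncalled, their ratio differed: Psmb9 ran at 4.97% to 7.24% of Psmb6 in CDAHFD RIC (median 5.41%) and at 2.85% to 3.96% in CDAHFD sham. The ratio was 1.68-fold higher after RIC without overlap (exact two-sided permutation test, p = 0.0159, adjusted p = 0.0381), and 0.0159 is the smallest p that 5 against 4 samples can give. With any 1 of these 9 samples left out the ratio did not pass, and the smallest possible p was then 0.0286 or 0.0357. The ratios of Psmb8 to Psmb5 (adjusted p = 0.698) and of Psmb10 to Psmb7 (adjusted p = 0.762, exact permutation tests) did not pass. In chow mice the Psmb9 to Psmb6 ratio was 1.32% to 2.89% after RIC and did not pass either (p = 0.0635, adjusted p = 0.109, exact permutation test).

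**Figure D5:**
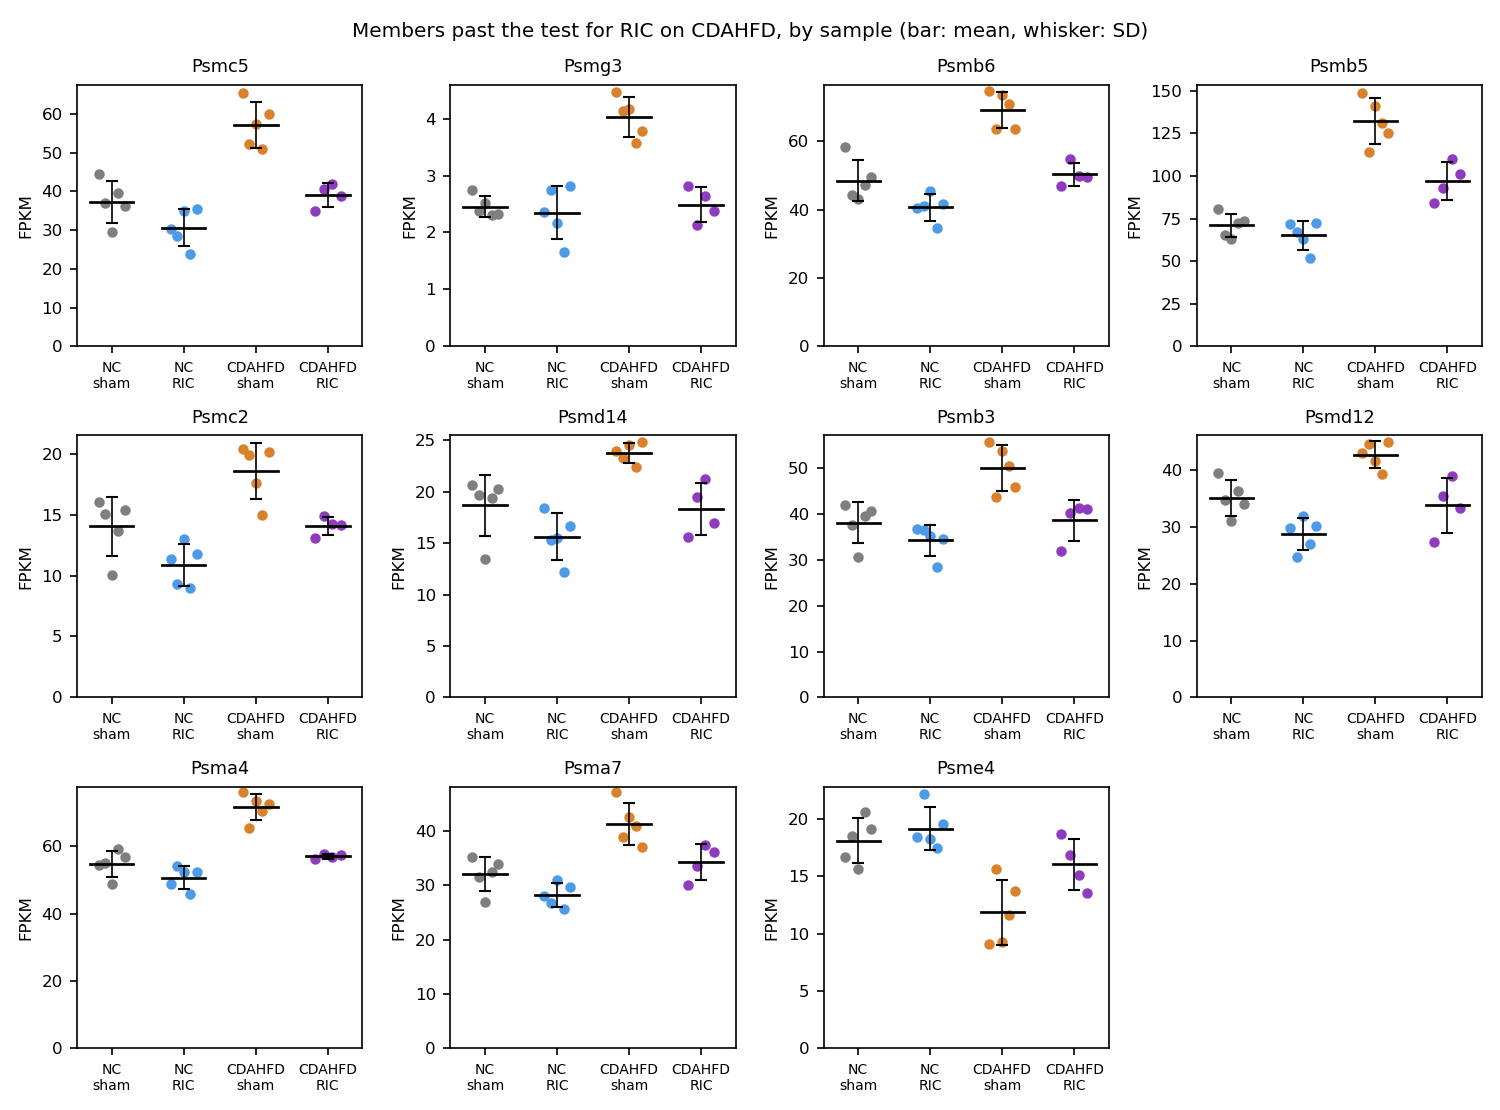
FPKM by sample in the 4 groups for the 11 members called between CDAHFD RIC and CDAHFD sham. In 9 of the 11, every CDAHFD RIC point lies below every CDAHFD sham point; Psma7 and Psme4 overlap. Over all called-lower genes 61.4% separate in this way.

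RIC on chow gave no call. Comparing NC RIC with NC sham, 0 of 46 members were higher and 0 lower by limma, where 0.321% of all genes were called higher and 0.86% lower. At an unadjusted p below 0.05, 14 members were lower and 0 higher. The share of all genes at that level was not worked out, so this count has no background to be read against. The median difference was -0.14 over members and -0.06 over all genes. With array weights Psmd3 and Psmd4 were called lower, where 299 of the 10577 genes tested were called lower and 102 higher. The differences of the catalytic and PA28 subunits were -0.13 for Psmb5, -0.25 for Psmb6, 0.02 for Psmb7, -0.06 for Psmb8, 0.10 for Psmb9, 0.13 for Psmb10, 0.03 for Psme1 and 0.06 for Psme2, all with adjusted p of at least 0.173. Psmb5 measured 71.6, 67.0, 63.0, 51.9 and 72.3 FPKM in NC RIC, where replicate 4 lay below the NC sham range and the others lay within it or at its lower edge. Psmb8 measured 3.25, 2.08, 2.68, 3.26 and 2.81 FPKM there, Psmb9 measured 0.661, 1.185, 0.599, 0.787 and 0.843 FPKM, and Psmb10 measured 3.13, 4.05, 5.17, 4.47 and 4.03 FPKM. For Psmb8 and Psmb10 these lay within the NC sham range, and for Psmb9 only replicate 2 lay above it. The largest difference was that of Psmd4, a ubiquitin receptor (34.6 and 24.5 FPKM in group means, -0.49, limma adjusted p = 0.115).

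Diet in RIC mice repeated the diet comparison in the other 9 samples, with RIC in both groups. Of the 46 members 29 rose (63.0%, against 63.6% of all genes) and 1, Psmb7, fell (2.17%, against 6.68%), with a median member difference of 0.36 against 0.42 over all genes. The largest rises were those of Psmd8 (1.54, limma adjusted p = 2.22e-09), Psmb10 (1.26, 1.31e-05), Psmg4 (1.21, 2.43e-05), Psmb9 (1.10, 2.76e-06 with no filter) and Psmf1 (0.93, 3.13e-08), followed by Psmb8 (0.92, 7.27e-05) and Psme1 (0.88, 3.58e-05). Psmb8, Psmb9, Psmb10, Psmd8, Psmd10, Psmg2, Psmg4 and Psmf1 were higher under every scaling. For Psmb9 these calls again come from fits with the filter that it passed only through the CDAHFD samples.

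Psmb5 (0.57, limma adjusted p = 0.00015), Psme2 (0.50, 0.000231) and Psmb6 (0.30, 0.00851) were called higher, but measured -0.04, -0.10 and -0.30 under median-ratio scaling. Psmb7 was lower (-0.27, limma adjusted p = 0.00434) and Psme4 did not pass (-0.25, adjusted p = 0.112). All 3 base subunits without ATPase activity were called higher here and none in sham mice. The difference between the arms was not called for any of them, since Psmd1, Psmd2 and Psmd4 had interaction adjusted p of 0.442, 0.334 and 0.783. The ratio of Psmb10 to Psmb7 was 3.32-fold and that of Psmb9 to Psmb6 2.91-fold higher on CDAHFD (exact permutation test, adjusted p = 0.0381 for both), and neither passed with any 1 of the 9 samples left out.

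The interaction of diet and RIC, the RIC difference on CDAHFD minus that on chow, was called for Psmg3 alone. It was -0.47 (SE 0.14, limma adjusted p = 0.043), which made 1 of 46 members lower and 0 higher, against 3.13% and 3.59% of all genes. At an unadjusted p below 0.05, 3 members were lower and 1 higher. The share of all genes at that level was not worked out, so these counts have no background either. The median interaction was -0.05 over members and -0.03 over all genes. The Psmg3 call was lost when any of 14 of the 19 samples was left out (adjusted p up to 0.0905), and also with a pseudocount of 0.1 or 0.25, with no filter, with a common sum (0.102) and with median-ratio scaling (0.0631). For Psmb5 (-0.32, adjusted p = 0.216), Psmb6 (-0.20, 0.366) and Psme4 (0.34, 0.277), called on CDAHFD and not on chow, the difference between diets did not pass the limma test. The interaction of Psmb8 was -0.23, of Psmb9 0.10, of Psmb10 -0.29, of Psmb7 -0.06, of Psme1 -0.38 and of Psme2 -0.24, all with adjusted p of at least 0.27.

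Across samples, the constitutive 26S genes (31 genes of the core, base and lid) were described by the median of their log2 deviation from each gene's mean over the 19 samples. It was 0.24, 0.29, 0.26, 0.17 and 0.27 in CDAHFD sham, the highest group. It was -0.13, 0.08, 0.16 and 0.04 in CDAHFD RIC. It was 0.13, -0.02, -0.30, 0.0017 and 0.01 in NC sham and -0.22, -0.31, -0.13, -0.41 and -0.16 in NC RIC, so NC sham replicate 3 sat with the NC RIC samples. The same median over all tested genes also moved between samples, from 0.22 to 0.33 in CDAHFD sham, 0.14 to 0.25 in CDAHFD RIC, -0.23 to -0.14 in NC sham and -0.35 to -0.20 in NC RIC. Taken relative to it, the 26S genes lay between -0.06 and -0.0027 in CDAHFD sham and at -0.30, -0.17, 0.01 and -0.18 in CDAHFD RIC, where replicate 3 lay above the sham samples. In NC sham they lay at 0.27, 0.19, -0.08, 0.20 and 0.15, so CDAHFD sham was not the highest group on that scale. Leaving NC sham replicate 3 out, Psmb4, Psmc3 and Psmd13 lost their diet calls in sham mice.

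Genes that work with the proteasome but carry other names were given by list. Of 17 tested partners (of 18 listed), 12 rose with diet in sham mice (63.9% of all genes did) and none fell, with a median of 0.43 against 0.45 over all genes. They included Sem1, a small lid subunit (11.3 to 21.0 FPKM), Ubqln4, a shuttle factor (4.86 to 8.37 FPKM), and Zfand2a, which associates with the proteasome under stress (3.99 to 7.90 FPKM). With median-ratio scaling 3 of the 17 were higher and 9 lower, against 26.9% and 34.4% of all genes. With RIC on CDAHFD, 4 of them fell and 2 rose, against 18.6% and 8.72% of all genes. Ubqln4 fell by 0.62 (limma adjusted p = 5.71e-05), Akirin2, which carries proteasomes into the nucleus, fell from 15.2 to 9.47 FPKM (0.00122), and Zfand5, an activator of the 26S particle, rose from 2.95 to 6.18 FPKM (0.00331). With RIC on chow none was called, and the interaction was called for Zfand5 (1.05, adjusted p = 0.017) and Ubqln4 (-0.40, 0.0359). With diet in RIC mice 14 rose and none fell, against 63.6% and 6.68% of all genes.

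In the list around NRF1, the factor known to raise proteasome genes when the proteasome is inhibited, 4 of 9 genes rose with diet in sham mice and 1 fell, against 63.9% and 10.3% of all genes, with a median of 0.19 against 0.45. With median-ratio scaling 2 rose and 6 fell, against 26.9% and 34.4% of all genes. Nfe2l2, which codes for the related NRF2, rose from 10.6 to 41.1 FPKM (1.86, limma adjusted p = 2.94e-11), and Mafk, a small Maf partner, from 2.70 to 7.45 FPKM. Both were higher under every scaling. Ngly1, which processes NRF1, fell from 8.18 to 5.95 FPKM (limma adjusted p = 0.000143). After RIC on CDAHFD, Nfe2l2 fell to 24.8 FPKM (-0.71, limma adjusted p = 0.000413) and Ngly1 rose to 7.69 FPKM (0.00946). With RIC on chow and in the interaction none of the 9 was called, and with diet in RIC mice 5 rose (63.6% of all genes did).

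Of the 6 ubiquitin and E1 genes, 5 rose with diet in sham mice, where 63.9% of all genes rose, among them Uba1, the main E1 enzyme (difference 0.67, limma adjusted p = 2.45e-06). With a common sum 5 rose, with quantile normalization 5 rose and 1 fell, and with median-ratio scaling none rose and 1 fell. Of all genes, 66.0% rose and 8.83% fell with a common sum, 29.5% and 32.4% with quantile normalization, and 26.9% and 34.4% with median ratio. After RIC on CDAHFD 2 of the 6 fell (18.6% of all genes did), as with quantile normalization, and none fell with a common sum or median ratio. Of all genes, 13.7% fell with quantile normalization, 9.18% with a common sum and 9.24% with median ratio. Ubb, a polyubiquitin gene, fell with RIC on chow (180 to 132 FPKM, limma adjusted p = 0.0496), a call lost with median-ratio scaling and quantile normalization. With diet in RIC mice 5 of the 6 rose (63.6% of all genes did), and no interaction was called.

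Of the 10 class I genes, which act downstream of the immunoproteasome or regulate it, 9 rose with diet in sham mice, against 63.9% of all genes, with a median of 0.86 against 0.45. With median-ratio scaling 6 rose and 1 fell, against 26.9% and 34.4% of all genes. Tap1 among the 10 had an NC sham mean below 1 FPKM, given with Psmb9 above, and passed the minimum through samples with higher levels. H2-D1, a class I heavy chain, rose from 122 to 372 FPKM, Irf1, an interferon response factor, from 2.18 to 9.52 FPKM, and Nlrc5, the class I transactivator, from 1.66 to 3.84 FPKM. These 3 were higher under every scaling. With RIC on CDAHFD, Erap1, the peptide trimming enzyme (11.9 to 16.4 FPKM, limma adjusted p = 0.0162), and H2-K1 (155 to 199 FPKM, 0.0367) rose and none fell. Over all genes 8.72% were called higher in that comparison. With RIC on chow and in the interaction none of the 10 was called, and with diet in RIC mice 8 rose (63.6% of all genes did).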

How the data were processed

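Liver RNA of 19 mouse samples was sequenced from Trizol-extracted total RNA with a VAHTS library kit, per the labels' protocols. The authors deposited 1 table of FPKM values for 55335 entries. FastQC 0.11.9, Trimmomatic 0.38, HISAT2 2.2.1, HTSeq 0.13.5, R 3.4.1, DESeq2 1.18.1 and mm10 are named per the submitters' processing notes. The program behind the FPKM, its annotation and the strand setting: not given in the sources used here. After 3225 unnamed entries were dropped, tests covered the 10577 genes averaging 1 FPKM or more. limma 3.58.1 (R 4.3.3, trended eBayes) was fitted to log2(FPKM + 1) with 1 mean per group, 15 residual degrees of freedom and Benjamini-Hochberg adjustment over all tested genes. Ratios of 2 genes were tested with exact permutation tests (scipy 1.17.1). Scripts were tested on simulated data. Gene positions came from GENCODE vM21, promoters from RefSeq.

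Named genes were the 6 catalytic and 2 PA28 subunits, plus up to 5 members with the largest rise and 5 with the largest fall in each comparison, and up to 3 genes per further list. Members and lists were chosen with earlier results of these data known. Alternatives were the pseudocount, the filter, 3 scalings, array weights, a replicate block, subsets of groups and samples left out. A change of sign was counted as a reversal only where the main value was called. No 2 samples held near-identical values (highest correlation 0.987). Some single genes of the further lists are not reported here.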

Additional observations from a re-analysis of the deposited data

Results flagged for a closer look

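Psmg3, the core assembly chaperone, met the criterion of a difference between groups under the same contrast. The RIC difference on CDAHFD and that on chow differed by -0.47 on the log2(FPKM + 1) scale (SE 0.14, limma adjusted p = 0.043 over all tested genes), and all 4 CDAHFD RIC samples (2.13 to 2.82 FPKM) lay below all 5 CDAHFD sham samples (3.57 to 4.46 FPKM). Without single samples the interaction ranged from -0.55 to -0.42 with adjusted p of 0.0101 to 0.0905, and the call was also lost with a pseudocount of 0.1 or 0.25, with no filter, with a common sum (adjusted p = 0.102) and with median-ratio scaling (0.0631). No sample lay far from the others of its group in the 48 sets of 4 or 5 values checked, which held the catalytic and PA28 levels, their ratios and the immunoproteasome share in each group.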

How the results depend on the processing

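Of the results for single members under all alternatives, 2691 stayed as reported, 142 lost and 4 gained a call, and 49 turned. All 49 turned with the scaling of samples. With median-ratio scaling the diet difference in sham mice was -0.20 for Psma2, -0.27 for Psma4, -0.33 for Psma6, -0.28 for Psma7, -0.017 for Psmb2, -0.26 for Psmb3, -0.41 for Psmb4, -0.14 for Psmb6, -0.23 for Psmc2, -0.39 for Psmc3, -0.0395 for Psmc5, -0.28 for Psmd3, -0.25 for Psmd7, -0.37 for Psmd12, -0.41 for Psmd13, -0.28 for Psmd14, -0.15 for Psmg1 and -0.0478 for Psme3. In RIC mice it was -0.23 for Psma2, -0.44 for Psma4, -0.25 for Psma6, -0.33 for Psma7, -0.19 for Psmb2, -0.34 for Psmb4, -0.0437 for Psmb5, -0.30 for Psmb6, -0.0727 for Psmc1, -0.22 for Psmc2, -0.25 for Psmc5, -0.20 for Psmd1, -0.11 for Psmd2, -0.19 for Psmd4, -0.17 for Psmd7, -0.16 for Psmd13, -0.10 for Psme2 and -0.0085 for Psme3. With quantile normalization it was -0.0061 for Psmc2, -0.0201 for Psmc3, -0.14 for Psmd3, -0.0453 for Psmd12, -0.18 for Psmd13, -0.0475 for Psmd14 and -0.0051 for Psmg3 in sham mice, and -0.0489 for Psma2, -0.0940 for Psma4, -0.11 for Psma7, -0.018 for Psmb6, -0.0773 for Psmc2 and -0.0397 for Psmd1 in RIC mice. The cause was not tested.

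Counts moved as follows. For diet in sham mice, members called higher went from 31 to 9 (median ratio) and 17 (quantile), and those lower from 2 to 1 (common sum), 27 (median ratio) and 11 (quantile). For diet in RIC mice, those higher went from 29 to 8 and 10, and those lower from 1 to 23 and 11, to 0 with a common sum and to 2 without CDAHFD sham replicates 2 and 5. For RIC on CDAHFD, those lower went from 10 to 4 (common sum) and 5 (median ratio), and those higher from 1 to 2 under these, quantile normalization and without CDAHFD sham replicates 2 and 5, and to 0 with no filter or only the groups compared. For RIC on NC, those lower went from 0 to 2 with array weights. The interaction count lower went from 1 to 0 with a pseudocount of 0.1 or 0.25, with no filter, with a minimum of 5 FPKM, with a common sum and with median ratio, and the count higher from 0 to 1 without CDAHFD sham replicates 2 and 5. Over all genes, diet in RIC mice gave 23.0% higher and 28.1% lower with median ratio, and 24.1% and 27.0% with quantile normalization.

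Leaving out 1 sample at a time, members higher and lower ranged from 28 to 33 and 2 to 3 (diet in sham mice), 0 to 2 and 5 to 12 (RIC on CDAHFD), 0 to 0 and 0 to 1 (RIC on NC), 25 to 32 and 1 to 1 (diet in RIC mice) and 0 to 0 and 0 to 1 (interaction). Over all genes, counts higher and lower ranged from 6532 to 6783 and 1006 to 1135 for diet in sham mice. For RIC on CDAHFD they ranged from 645 to 1120 and 1300 to 2151, and for RIC on NC from 4 to 35 and 9 to 149. For diet in RIC mice they ranged from 6247 to 6788 and 630 to 725, and for the interaction from 235 to 575 and 188 to 491. On the log2 scale the ratio of Psmb9 to Psmb6 ranged from 1.22 to 1.36 (diet in sham mice), 0.63 to 0.81 (RIC on CDAHFD), 0.36 to 0.64 (RIC on NC) and 1.40 to 1.68 (diet in RIC mice), that of Psmb10 to Psmb7 from 1.84 to 2.21, -0.30 to 0.11, -0.01 to 0.35 and 1.55 to 1.97, and that of Psmb8 to Psmb5 from 0.33 to 0.67, 0.03 to 0.26, -0.12 to 0.21 and 0.46 to 0.71, in the same order. All calls of ratios that use the 4 CDAHFD RIC samples were lost there, where the smallest possible p was 0.0286 or 0.0357. With a pseudocount of 1 in both genes, the Psmb9 to Psmb6 ratio passed for RIC on NC (0.35).

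Replicate numbers did not pair the samples: same-numbered samples of different groups had deviations correlated at -0.17 to 0.18 over 27 pairs. With the replicate block, members higher and lower were 31 and 2, 1 and 7, 0 and 0, 29 and 1, and 0 and 1 in the order above. Over all genes they were 6759 and 1098, 902 and 1645, 20 and 59, 6753 and 697, and 353 and 247. The block left the Psmb9 to Psmb6 ratio at 1.29, 0.69 and 1.55 (diet in sham mice, RIC on CDAHFD, diet in RIC mice) and the Psmb10 to Psmb7 ratio at 2.01 and 1.73 (diet in sham and RIC mice), none passing, since 5 or 4 pairs cannot give a p under 0.0625 or 0.125. Low levels limit Psmb9, Psma8 and Psmb11 most, and the exact read counts behind the FPKM are unknown.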
